A study of Arabidopsis thaliana with 357 samples.

Results

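ZAT6, ZAT7, ZAT10, ZAT11, ZAT12, AZF1 and AZF2 of Arabidopsis thaliana were followed in leaves after infiltration with flg22, the peptide of bacterial flagellin that plants sense through the receptor FLS2. The members were taken from the read count table by their locus identifiers (AT5G04340, AT3G46090, AT1G27730, AT2G37430, AT5G59820, AT5G67450 and AT3G19580), which gave 7 of 33600 genes. The study asked how the jasmonate, ethylene, PAD4 and salicylate signaling sectors shape the transcript response to flg22. It used 3 leaves of each plant of 31 to 32 days, syringe-infiltrated with 1 µM flg22 and harvested after 1, 2, 3, 5, 9 or 18 h, while the 0 h leaves were untouched. A replicate held 12 leaves pooled from 4 independent experiments, and each of the 119 genotype and time combinations had 3 replicates, 357 libraries in all.

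The genotypes, all in the Col-0 background, were named by 4 letters for the sectors, in lower case where the mutation removes the sector. dde2-2 removes jasmonate (J, the allene oxide synthase gene), ein2-1 ethylene signaling (E), pad4-1 the PAD4 sector (P) and sid2-2 pathogen-induced salicylate synthesis (S, an isochorismate synthase gene). There were 15 mutants from the single mutants to the quadruple mutant jeps, the wild type Col-0 (JEPS), and fls2, which carries an insertion in the flg22 receptor gene and has all 4 sectors intact. Each mutation is a single allele, and fls2 leaves were infiltrated with flg22 too, so that fls2 is the measure of what handling, infiltration and time of day do without perception of flg22. No mock-infiltrated JEPS leaves were analysed here.

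These proteins belong to the C1-2i class of plant C2H2 zinc finger factors. They carry a pair of separated zinc fingers that bind DNA and, near the C terminus, an EAR motif that recruits corepressors of the TOPLESS type, so that most of them act as transcriptional repressors. Their transcripts are known to respond fast to cold, salt, wounding, reactive oxygen and microbial patterns. ZAT10 (also STZ) and ZAT6 are substrates of the MAP kinases MPK3 and MPK6, ZAT12 is a marker of hydrogen peroxide and high light, ZAT7 has been tied to salt tolerance, ZAT11 to nickel tolerance and cell death, and AZF1 and AZF2 repress auxin-responsive genes under salt and abscisic acid.

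All 7 genes have their coding sequence in 1 exon, and AZF2 alone has more than 1 annotated exon, 3 over its 2 transcripts. On the TAIR10.1 assembly they lie at chr5:1216058-1217362 (ZAT6, minus strand), chr3:16925881-16926883 (ZAT7, minus), chr1:9648021-9649323 (ZAT10, minus), chr2:15706285-15707224 (ZAT11, plus), chr5:24102814-24103794 (ZAT12, plus), chr5:26918765-26920179 (AZF1, minus) and chr3:6802903-6804296 (AZF2, minus). The reads came from the 3′ ends of transcripts, which for single-exon genes fall in the terminal part of that exon.

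The promoters of 4 members are shown, ZAT6 and ZAT10 for their shared early rise and ZAT7 and ZAT12 for their dependence on the alleles described below. They are the 250 bases before the annotated start, 5′ to 3′ on the strand of the gene, from RefSeq on TAIR10.1. In ZAT6 (chr5:1217363-1217612) and ZAT10 (chr1:9649324-9649573) the capitals mark runs that both promoters hold. In ZAT7 (chr3:16926884-16927133) and ZAT12 (chr5:24102564-24102813) the capitals mark the core TTGAC, or GTCAA on the other strand, which WRKY factors are known to bind (the W-box).
ZAT6: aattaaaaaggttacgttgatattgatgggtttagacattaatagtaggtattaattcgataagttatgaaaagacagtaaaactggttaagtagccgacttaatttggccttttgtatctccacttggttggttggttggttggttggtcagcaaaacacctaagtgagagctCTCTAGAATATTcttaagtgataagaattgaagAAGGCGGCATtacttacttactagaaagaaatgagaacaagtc
ZAT10: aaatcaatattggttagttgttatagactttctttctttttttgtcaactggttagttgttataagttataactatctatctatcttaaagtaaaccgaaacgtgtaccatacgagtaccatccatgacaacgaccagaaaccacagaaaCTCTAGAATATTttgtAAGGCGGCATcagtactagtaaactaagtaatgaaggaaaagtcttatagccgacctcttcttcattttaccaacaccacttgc
ZAT7: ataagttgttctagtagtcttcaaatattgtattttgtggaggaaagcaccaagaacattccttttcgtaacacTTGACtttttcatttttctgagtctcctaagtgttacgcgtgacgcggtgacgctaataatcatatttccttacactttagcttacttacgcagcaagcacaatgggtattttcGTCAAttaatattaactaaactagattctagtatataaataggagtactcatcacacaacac
ZAT12: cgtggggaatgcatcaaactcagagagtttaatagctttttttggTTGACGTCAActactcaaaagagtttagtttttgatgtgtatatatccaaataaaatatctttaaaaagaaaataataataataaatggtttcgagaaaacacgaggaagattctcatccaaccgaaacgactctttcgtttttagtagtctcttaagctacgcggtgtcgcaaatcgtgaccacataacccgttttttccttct

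All 21 pairs of member promoters were searched for shared runs of 10 bases or more, and 5 pairs held such a run. The shared runs of ZAT6 and ZAT10 were CTCTAGAATATT, which 6 of 27443 promoters of the same length hold, and AAGGCGGCAT, which 2 of 27443 hold, these being ZAT6 and ZAT10. The runs were picked because both promoters hold them, so these shares are a description and not a test. The second run contains GCCGCC on the other strand, the core of the GCC box of ERF factors. GCCGCC, on either strand, was in 2 of the 7 members (ZAT6 and ZAT10) and in 1.87% of all promoters. TTGAC, on either strand, was in 6 of 7 members (all but ZAT6) and in 44.9% of all promoters, and 2 or more copies were in 4 of 7 members (ZAT7, ZAT11, ZAT12 and AZF2) and in 14.1% of all promoters. In ZAT12 a TTGAC and a GTCAA stand side by side, 205 and 200 bases before the start. CACGTG and CGCGTT were in 0 of 7 members, against 6.49% and 2.59% of all promoters, and CGCG was in 2 of 7 (ZAT7 and ZAT12), against 10.1%. A match of letters is not a bound site, and no binding was measured.

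The libraries held 372525 to 5130803 reads (median 1275620). Levels are given as normalized counts, that is read counts scaled so that the 90th percentile gene of each library has 300. A single read was worth 1 to 11.1 normalized counts (median 3.53), and more at 0 h (median 5.26), so that low 0 h levels rest on a handful of reads. Of the 26275 genes with a read, 11848 passed the filter on low counts and were tested. All members but ZAT11 passed, and ZAT11 failed because 55 libraries held no read of it. The transcripts of the 5 mutated genes checked the labels: their medians were 59.1 against 1900 (DDE2), 48.6 against 145 (EIN2), 25.9 against 273 (PAD4), 7.86 against 362 (SID2) and 7.59 against 130 (FLS2), each in mutant against intact libraries. The mesophyll genes LHCB1.3 and RBCS1A were high in all 357 libraries, from 1807 and 6816 normalized counts up. In whole leaves, fewer cells that express a gene and less RNA of it per cell cannot be told apart.

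The first comparison asked what happened in leaves that cannot perceive flg22. In the first hour ZAT6 and ZAT10 rose most in fls2 leaves, ZAT7, ZAT12 and AZF1 rose less, and AZF2 did not pass the test. AZF1 was highest at 2 h, where its difference was about as large as those of ZAT6 and ZAT10 at 1 h. At 18 h no member was called against 0 h. In terms of calls (adjusted p under 0.05 and a log2 difference beyond 1), 18 of 36 tests over 6 members and 6 times passed, all higher than at 0 h, where 11.1% of all tests over the 11848 genes were called higher and 10.1% lower. Without replicate 3 the 18 were 9. ZAT11 also rose, by the values given with the other ZAT11 data.

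ZAT10 had 697, 858 and 508 normalized counts in fls2 at 1 h, against 52.3, 46.2 and 3.80 in the untouched fls2 leaves. The 1 h libraries all lay above the 0 h libraries, and the fitted log2 difference was 4.34 ± 0.44 (SE, edgeR quasi-likelihood test with Benjamini-Hochberg adjustment, adjusted p = 3.44e-18), or 20.2-fold. ZAT6 had 530, 652 and 545 at 1 h, against 45.3, 13.8 and 30.4 at 0 h (log2 4.22 ± 0.43, adjusted p = 4.16e-18). Both were still higher at 2 h (ZAT6 3.60, ZAT10 2.40), and both differed less at 3 and 5 h, from 1.52 to 1.82, where the calls were lost without replicate 3 (1.06 to 1.49, adjusted p from 0.0582 to 0.182). ZAT12 had 217, 117 and 73.7 in fls2 at 1 h, against 17.4, 4.62 and 15.2 at 0 h (log2 3.40 ± 0.75, adjusted p = 7.26e-06). ZAT7 was higher at 1 h only (log2 3.07 ± 0.75, adjusted p = 0.000111), and its 2 h difference passed with the replicate number as a block (log2 1.63, adjusted p = 0.0418). AZF1 was highest at 2 h, with 118, 90.0 and 107 against 14.0, 0 and 0 at 0 h (log2 4.35 ± 0.70, adjusted p = 5.66e-13). Its smaller calls at 3, 5 and 9 h were lost with the replicate as a block within each time point (adjusted p = 0.0764, 0.175 and 0.219). For AZF2 the differences ran from -0.61 to 0.68 with adjusted p of 0.5 and above.

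TCH4, a gene known to respond to touch, moved in the same hour: it had 3000, 1898 and 1542 normalized counts in fls2 at 1 h, against 481, 36.9 and 34.2 at 0 h, and 136, 97.5 and 174 at 2 h. The part of touch and wounding in the early rise of the members was not tested. TCH4 was also high in the untouched replicate 1 libraries, with 291 in jeps, 664 in JEPS and 481 in fls2, where the other 0 h libraries of these genotypes held 26.3 to 86.4.

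The second comparison set the response of JEPS, its level at each time over its 0 h level on the log2 scale, against the response of fls2, which is the part of the response that needs perception of flg22. With the receptor, AZF1 and ZAT12 were higher at every time, ZAT10 from 2 to 18 h, ZAT6 from 2 to 9 h and ZAT7 at 9 and 18 h only, while AZF2 did not pass. No member was lower. Of the 36 tests 23 were called, all higher, where 8.72% of all tests were called higher and 14.5% lower. Without replicate 1 the 23 were 9, where AZF1 gave no value at any of the 6 times, and without replicate 3 they were 13. The median log2 difference was 2.96 over the member tests and -0.14 over all tests. In untouched leaves JEPS and fls2 did not differ by this test in any of the 6 members (0 called, 0 with an unadjusted p under 0.05 and 0 with DESeq2, where 0.00844% of all genes were called).

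**Figure D1:**
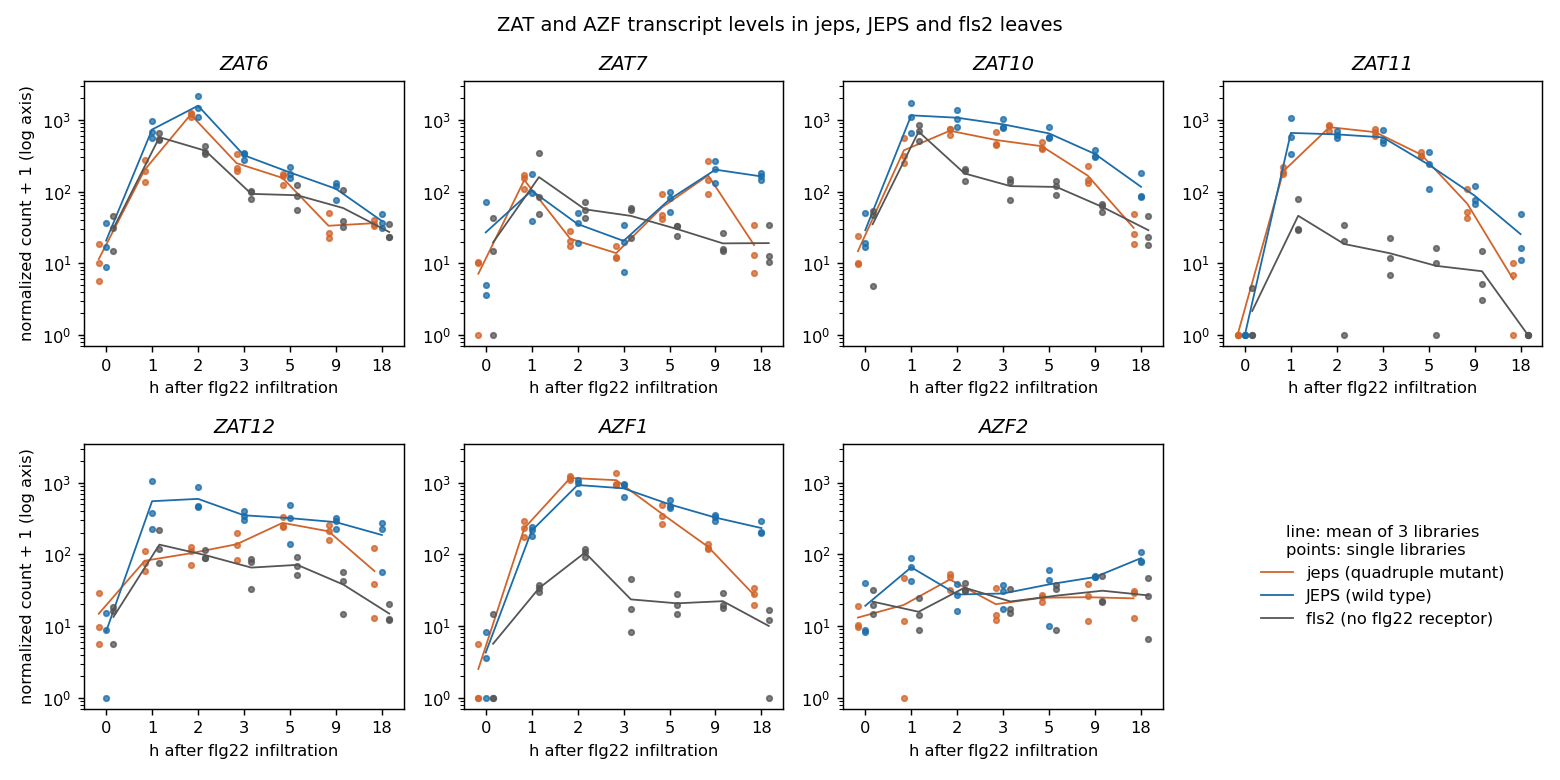
Normalized counts (plus 1, log axis) of the 7 genes in jeps, JEPS and fls2 leaves by hours after infiltration, with time points evenly spaced. Points are single libraries and lines join the means of 3, and fls2 comes close to JEPS at 1 h for ZAT6, ZAT7 and ZAT10 but stays far below it for ZAT11 and AZF1.

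ZAT10 and ZAT6 were high early, and at 1 h neither response difference was called. For ZAT10, JEPS had 1747, 1086 and 652 normalized counts at 1 h, against 697, 858 and 508 in fls2, and the groups overlapped (response difference 1.24 ± 0.65, adjusted p = 0.164). The gap opened at 2 h, when JEPS had 1041, 1391 and 794, against 206, 139 and 191 in fls2. There the response difference was 3.05 ± 0.66 (adjusted p = 9.49e-05), and it was 3.34 ± 0.66 at 3 h (adjusted p = 2.03e-05), or 10.1-fold. ZAT10 declined slowly in JEPS, with means of 649 ± 138 at 5 h, 335 ± 44.0 at 9 h and 116 ± 54.6 at 18 h (SD, n = 3 each), where the response differences were 2.97, 2.94 and 2.53. Without replicate 2 the calls at 2, 9 and 18 h were lost (2.21, 2.40 and 2.62, adjusted p = 0.0617, 0.0506 and 0.0574), and without replicate 1 that at 18 h (1.89, adjusted p = 0.153).

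ZAT6 was a sharper pulse. JEPS had 1494, 2138 and 1111 at 2 h, against 333, 352.5 and 430 in fls2, and 350, 339 and 274 at 3 h, against 78.6, 97.1 and 101. The libraries did not overlap at either time, and the response differences were 3.00 ± 0.68 (adjusted p = 0.000174) and 2.71 ± 0.69 (adjusted p = 0.00105). At 1 h JEPS (976, 554 and 676) overlapped with fls2 (530, 652 and 545). The calls at 5 and 9 h (1.98 and 2.01) were lost without replicate 3 (1.83 and 1.32, adjusted p = 0.167 and 0.374), that at 5 h also without replicate 1 (1.91, adjusted p = 0.142) and that at 9 h without replicate 2 (2.01, adjusted p = 0.0705). ZAT6 peaked at 2 h in all 16 combinatorial genotypes and at 1 h in fls2.

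ZAT12, like AZF1, differed from fls2 already at 1 h, and its difference was largest at 18 h. JEPS had 1051, 378 and 224 at 1 h, against 217, 117 and 73.7 in fls2, and 276, 55.9 and 225 at 18 h, against 19.1, 11.1 and 11.5. The groups did not overlap at either time. The response difference was 3.28 ± 1.28 at 1 h (adjusted p = 0.0355) and 4.95 ± 1.42 at 18 h (adjusted p = 0.00242), and 3.47 to 4.10 between them. The responses start from 14.3, 7.89 and 0 normalized counts of ZAT12 in JEPS at 0 h. Without replicate 3 all 6 calls were lost (2.26 to 3.58, adjusted p from 0.155 to 0.364), and without replicate 1 those at 1, 2, 3 and 5 h (3.24 to 3.87, adjusted p from 0.0773 to 0.164). The levels themselves were compared after the response tests had been seen and without the 0 h libraries, and 25 of 36 member tests were called, all higher in JEPS in the fit without the block, where 11.9% of all tests were called higher and 19.2% lower. Those of ZAT12 differed by 2.00 to 3.67 at the 6 times (adjusted p from 6.14e-07 to 0.000112), and all 10 alternatives called them.

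AZF1 had the largest response differences of the 6 tested members. It held 3.26 ± 3.61 normalized counts in JEPS at 0 h (SD, n = 3), from 0 to 7.14. At 2 h JEPS had 711, 1080 and 994, against 118, 90.0 and 107 in fls2, and at 3 h 945, 916 and 640, against 7.14, 44.1 and 16.4. The response differences were 4.13 ± 1.16 (adjusted p = 0.00622) and 6.16 ± 1.18 (adjusted p = 0.000105), the second being 71.6-fold. The difference lasted, with 198, 290 and 208 in JEPS at 18 h, against 16.0, 11.1 and 0 in fls2 (5.48 ± 1.25, adjusted p = 0.00077). With replicate 1 left out, the remaining fls2 libraries at 0 h held no read and no size could be given. The levels at the 6 times, which need no 0 h library, differed by 2.70 to 5.17, and all 10 alternatives called each of them.

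ZAT11 was not detected in untouched JEPS leaves and was high 1 h later. The 3 JEPS libraries at 0 h held 0 reads, which allows up to 3.88 normalized counts over the group. JEPS had 1075, 571 and 333 at 1 h, 624, 698 and 565 at 2 h, and 718, 529 and 471 at 3 h, at least 163-fold, 154-fold and 143-fold higher than that floor of 3 counts. In fls2 it had 78.3, 28.1 and 28.9 at 1 h, 33.3, 0 and 19.6 at 2 h, and 10.7, 5.88 and 21.8 at 3 h. The JEPS and fls2 libraries stayed apart from 1 to 18 h. ZAT11 was fitted with all 26275 genes, without the filter, and there the JEPS level was higher than the fls2 level by 3.81 ± 0.35 at 1 h (adjusted p = 4.83e-25), 5.08 ± 0.41 at 2 h (adjusted p = 1.39e-35) and 5.45 ± 0.46 at 3 h (adjusted p = 8.72e-37). The rise in fls2 from 0 to 1 h (5.17 ± 1.36) rests on 1 replicate at 0 h with 3.49 normalized counts and others at 0.

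ZAT7 answered late and at a lower level. JEPS had 270, 132 and 204 normalized counts at 9 h, against 14.0, 25.4 and 14.7 in fls2, and 179, 163 and 145 at 18 h, against 9.57, 33.3 and 11.5. The groups did not overlap, and the response differences were 3.66 ± 1.20 (adjusted p = 0.0149) and 3.41 ± 1.25 (adjusted p = 0.0304). At 1 h JEPS (175, 94.6 and 38.2) and fls2 (344, 84.4 and 47.4) overlapped (-0.53 ± 1.08, adjusted p = 0.79). In JEPS the means of ZAT7 were thus high at 1 h, low at 2 and 3 h and highest at 9 h. In untouched JEPS leaves it had 71.4, 3.95 and 2.63, the first being the replicate with high TCH4. Both late calls were lost with any replicate left out (3.12 to 4.17, adjusted p from 0.0789 to 0.16) and with sequencing lane as a term (2.21 and 1.89, adjusted p = 0.114 and 0.208). The levels at 9 and 18 h, without the 0 h libraries, differed by 3.51 ± 0.75 and 3.26 ± 0.82, and all 10 alternatives called them. At 3 h the level was lower in JEPS with the replicate number as a block (-1.50, adjusted p = 0.0386) and with the block within each time point (-1.43, adjusted p = 0.0204), against -1.35 without it (adjusted p = 0.127), from 33.6, 18.6 and 6.45 in JEPS, against 21.4, 58.8 and 54.5 in fls2, which overlapped. At 5 h it was higher in JEPS with the block (1.39, adjusted p = 0.0472), against 1.40 without it (adjusted p = 0.0956).

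AZF2 was low throughout, between 0 and 106 normalized counts in jeps, JEPS and fls2. JEPS had 89.0, 65.2 and 40.9 at 1 h, against 7.83, 23.4 and 13.2 in fls2, and 106, 76.3 and 80.0 at 18 h, against 25.5, 5.56 and 46.2. The libraries did not overlap at either time, but the response differences of 2.42 ± 0.98 and 1.95 ± 0.95 missed the threshold (adjusted p = 0.0536 and 0.125). With the replicate as a block within each time point both passed (2.49 and 2.13, adjusted p = 0.0199 and 0.0459). The levels alone differed by 2.24 ± 0.64 at 1 h (adjusted p = 0.00158) and 1.77 ± 0.61 at 18 h (adjusted p = 0.00992), and without replicate 1 these were 1.60 and 1.61 (adjusted p = 0.15 and 0.144), and without replicate 2 that at 18 h was 1.44 (adjusted p = 0.0518).

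**Figure D2:**
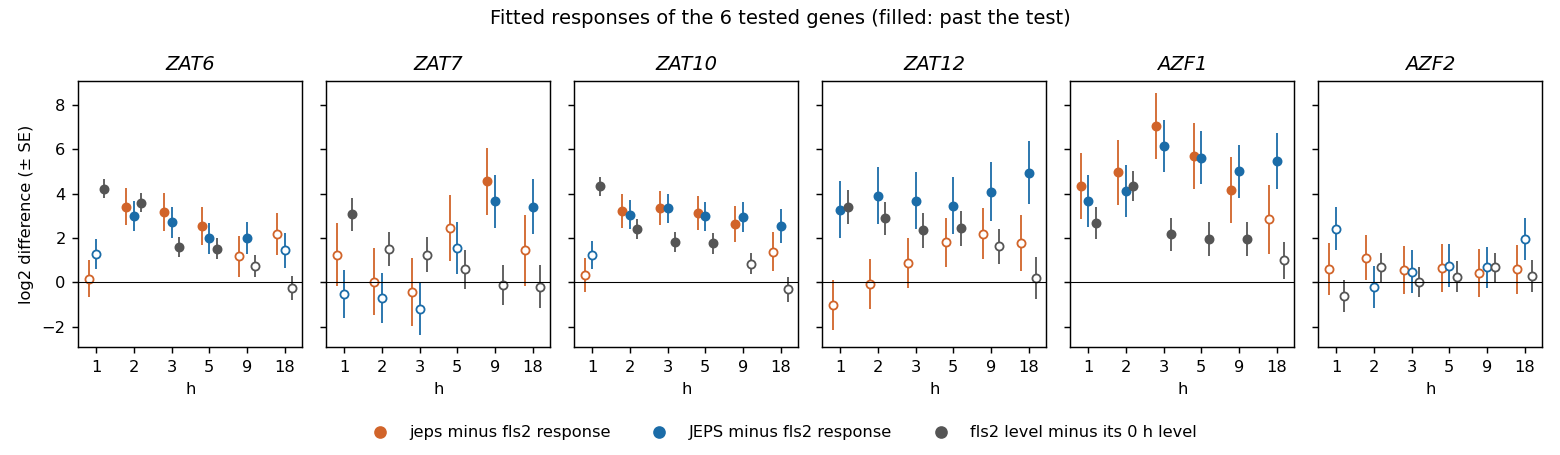
Fitted log2 differences with standard errors for the 6 tested genes at each time: the jeps and the JEPS response, each minus the fls2 response, and the fls2 level minus its 0 h level, with filled points past the test. The fls2 points are highest at 1 h for ZAT6 and ZAT10 (4.22 and 4.34), and the JEPS points of AZF1 and ZAT12 are filled at all 6 times.

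The third comparison asked what is left of the response when all 4 sectors are gone. In jeps leaves AZF1, ZAT6 and ZAT10 still answered flg22, ZAT7 did so at 9 h, and ZAT12 did not pass at any time. Of 36 tests of the jeps response against the fls2 response 13 were called, all higher, where 6% of all tests were called higher and 7.53% lower. Without replicate 1 the 13 were 2, where AZF1 gave no value from 1 to 9 h. This comparison uses the same fls2 libraries as that of JEPS. AZF1 had 1353, 930 and 970 in jeps at 3 h, against 7.14, 44.1 and 16.4 in fls2 (7.06 ± 1.48, adjusted p = 6.58e-05), and with replicate 1 left out no size could be given. The 9 h call of ZAT7 (4.55 ± 1.52, adjusted p = 0.0124) was lost without replicate 1 (2.13, adjusted p = 0.574) and without replicate 2 (5.59, adjusted p = 0.0612). ZAT6 had 1227, 1243 and 1108 in jeps at 2 h, against 333, 352.5 and 430 in fls2 (3.41 ± 0.84, adjusted p = 0.000305). ZAT10 had 750, 624 and 748 in jeps at 2 h, against 206, 139 and 191 in fls2 (3.20 ± 0.77, adjusted p = 0.000386), a call lost without replicate 2 (2.59, adjusted p = 0.0726). ZAT12 had 75.0, 109 and 57.1 in jeps at 1 h, against 217, 117 and 73.7 in fls2 (-1.02 ± 1.13, adjusted p = 0.679). By 9 h ZAT12 had 257, 158 and 211 in jeps, against 14.0, 54.9 and 42.0 in fls2, and the response difference of 2.19 ± 1.15 did not pass (adjusted p = 0.227), while the levels differed by 2.36 ± 0.56 (adjusted p = 0.000276).

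The level of ZAT6, but not its response, went the other way at 1 h. ZAT6 had 134, 273 and 196 normalized counts in jeps at 1 h, against 530, 652 and 545 in fls2, so that the quadruple mutant with the receptor lay below the receptor mutant (level difference -1.57 ± 0.34, adjusted p = 0.000107, called in all 10 alternatives). Its response difference was 0.17 ± 0.85 (adjusted p = 0.95), from 17.6, 9.09 and 4.69 in jeps at 0 h, against 45.3, 13.8 and 30.4 in fls2. The lower level was not particular to jeps. In 10 of the 16 combinatorial genotypes all libraries of ZAT6 at 1 h lay below the lowest fls2 library. The 1 h level of ZAT10 leaned the same way, with 316, 564 and 250 in jeps, against 697, 858 and 508 in fls2 (-0.91 ± 0.34, adjusted p = 0.0384), short of the fold required for a call. Its response difference was 0.32 ± 0.77 (adjusted p = 0.88). These levels were compared after the response tests had been seen. Of the 36 tests of the jeps level against the fls2 level 15 were called higher and 1 lower, where 8.35% and 11.8% of all tests were. With the replicate block ZAT7 was lower in jeps at 3 h too (-1.96, adjusted p = 0.0169, against -1.85 and 0.0701 without it), from 16.7, 10.9 and 11.1 in jeps, against 21.4, 58.8 and 54.5 in fls2, which did not overlap. With the block within each time point ZAT7 was also lower at 2 h (-1.41, adjusted p = 0.0342), and ZAT12 was higher at 3 h (1.02, adjusted p = 0.0237). In that fit the jeps response of ZAT6 at 18 h passed as well (2.14, adjusted p = 0.0432).

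jeps was set against JEPS at each time in the same way. All 6 tested members were lower in jeps at 1 or more times, and 14 of 42 tests were called, all lower, where 4.18% of all tests were called lower and 4.77% higher. Without replicate 1 the 14 were 8. Without replicate 3, where AZF2 was not tested, they were 8. Each of the 6 was called at 9 or 18 h, and ZAT6, ZAT10, ZAT12 and AZF2 also at 1 h. At 1 h ZAT12 was lower, with 75.0, 109 and 57.1 in jeps at 1 h, against 1051, 378 and 224 in JEPS (-2.85 ± 0.49, adjusted p = 2.71e-06), and with 112, 71.1 and 125 at 2 h, against 864, 453 and 466 (-2.53 ± 0.46, adjusted p = 1.14e-05). ZAT6 and ZAT10 were lower at 1 h (-1.93 ± 0.34 and -1.67 ± 0.34, that of ZAT10 lost without replicate 1 at -1.13 and adjusted p = 0.0842), and the differences at 2, 3 and 5 h, from -0.73 to -0.26, were not called. AZF1 and ZAT7 were called at 9 or 18 h only. AZF1 had 27.0, 32.7 and 18.8 in jeps at 18 h, against 198, 290 and 208 in JEPS (-3.14 ± 0.38, adjusted p = 5.31e-13), and ZAT7 had 33.0, 11.9 and 6.25, against 179, 163 and 145 (-3.23 ± 0.72, adjusted p = 0.000113). At 18 h ZAT10 was lower by a log2 difference of -1.91 ± 0.45 (adjusted p = 0.000663), called in all 10 alternatives. ZAT12 at 18 h (-1.71 ± 0.51, adjusted p = 0.0112) was lost without replicate 3 (-1.29, adjusted p = 0.269), AZF2 at 18 h (-1.90 ± 0.57, adjusted p = 0.0104) without replicates 1 and 2, and ZAT6 at 9 h (-1.66 ± 0.47, adjusted p = 0.00542) without replicates 1 and 3. The 9 h call of ZAT10 (-1.07) and the 3 h call of ZAT12 (-1.36) were each lost with any replicate left out, and the 1 h call of AZF2 (-2.35) without replicate 1. From 1 to 3 h AZF1 differed by 0.15 to 0.38, higher in jeps, with adjusted p of 0.469 and above. ZAT11 had 185, 218 and 175 in jeps at 1 h, against 1075, 571 and 333 in JEPS (-1.79 ± 0.31, adjusted p = 1.13e-06), and 854, 691 and 837 at 2 h, against 624, 698 and 565 (0.34 ± 0.29, adjusted p = 0.797). Of the 4 fits that hold ZAT11, 3 called the 1 h difference.

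The study's own measure of network dependence is the response change, the response of each genotype with 1 or more intact sectors minus the response of jeps. Over 15 genotypes and 6 times, 1 of 540 member tests was called, where 0.768% of all tests were, and 36 had an unadjusted p under 0.05 and 3 were called by DESeq2. The 1 call was AZF2 in JEpS at 2 h (-3.66 ± 1.02, adjusted p = 0.0331), from 10.0, 27.8 and 15.1 normalized counts at 2 h and 33.3, 93.5 and 42.1 at 0 h in JEpS, against 30.8, 47.4 and 52.7 at 2 h and 8.82, 18.2 and 9.38 at 0 h in jeps. It was lost without replicate 1 (adjusted p = 0.311) and without replicate 2 (adjusted p = 0.188). With the replicate as a block within each time point 14 of the 540 were called, where 2.7% of all tests were in that fit, a share close to that of the members. Of the 14, 8 were ZAT12 at 1, 2 or 18 h in genotypes with E intact, all higher than in jeps, and 6 were lower than in jeps. The lower ones were AZF2 at 2 h in jEPs (-3.35), JePs (-3.19) and JEpS, ZAT7 at 1 h in JePS (-3.58, adjusted p = 0.00781), ZAT6 at 18 h in Jeps (-3.40) and ZAT10 at 5 h in jEPS (-1.83). For JEPS at 1 and 2 h the ZAT12 values were 4.13 and 3.95 (adjusted p = 0.00393 and 0.0056), against 4.30 and 3.97 without the block (adjusted p = 0.105 and 0.157). All these changes share the jeps libraries at 0 h. There the ZAT12 level lay above that of JEPS by 1.45 ± 1.24, which was not called (adjusted p = 0.559). Of 144 tests of the 4 single mutants against JEPS 0 were called, where 0.116% of all tests were, and 20 had an unadjusted p under 0.05 and 0 were called by DESeq2.

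The factorial design gives a more precise comparison: at each time 8 genotypes, 24 libraries, carry a mutant allele and 8 have the gene intact. These effects on levels were tested without a fold minimum. Of 168 tests 52 were called, 8 higher and 44 lower in the mutants, where 7.25% of all tests were called higher and 6.21% lower. With dde2-2, ZAT6, ZAT10, ZAT12 and AZF2 were lower and ZAT7 and AZF1 higher, at 1 or more times. With ein2-1, 5 of 6 members were lower at 1 h and 5 of 6 at 18 h. With pad4-1 ZAT7 was lower at all 6 times after infiltration and 5 of 6 members were lower at 18 h, and with sid2-2 AZF1 and AZF2 were lower at 9 and 18 h. The alleles were not tested against each other.

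**Figure D3:**
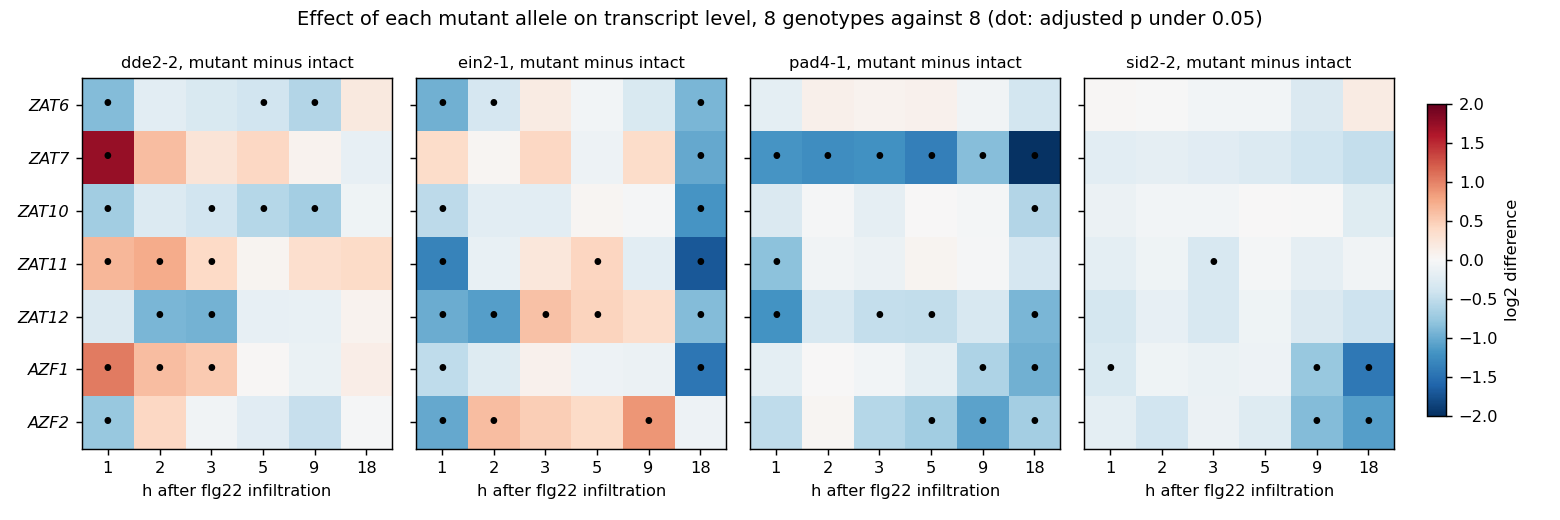
Log2 difference of 8 genotypes with the mutant allele minus 8 with the gene intact, for each of the 7 genes and the 4 alleles by hours after infiltration, with dots at adjusted p under 0.05. The row of ZAT7 is blue at all 6 times under pad4-1 (-0.85 to -1.97), and under sid2-2 the dots at 9 and 18 h are those of AZF1 and AZF2. ZAT11 comes from the fit without the filter.

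The loss of jasmonate synthesis had opposite signs in different members at the same time. At 1 h ZAT7 had 41.9 to 876 normalized counts with dde2-2 (median 178), against 10.0 to 281 with DDE2 intact (median 50.6), a log2 difference of 1.73 ± 0.21 (adjusted p = 2.94e-13), or 3.33-fold. AZF1 had 173 to 1008 with dde2-2 (median 387), against 83.7 to 415 (median 196), a difference of 1.04 ± 0.11 (adjusted p = 2.82e-17). It stayed higher at 2 and 3 h (0.62 and 0.53), and at 2 h the lowest mutant genotype mean of 1115 lay above the highest intact one of 929. ZAT11 had 638 to 1430 at 2 h with dde2-2 (median 990), against 412 to 829 (median 586), a difference of 0.74 ± 0.10 (adjusted p = 5.34e-11). In the same leaves at 1 h ZAT6 had 134 to 572 with dde2-2 (median 291), against 230 to 976 (median 559), a difference of -0.87 ± 0.12 (adjusted p = 2.83e-10). ZAT10 was lower at 1 h (-0.70 ± 0.12, adjusted p = 4.73e-07), at 3 h (-0.38), at 5 h (-0.56) and at 9 h (-0.68). ZAT12 was lower at 2 and 3 h (-0.92 ± 0.16 and -0.94 ± 0.16, adjusted p = 9.15e-07 and 5.1e-07). AZF2 was lower at 1 h (-0.76 ± 0.22), a call lost without replicate 1 (-0.46, adjusted p = 0.679).

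With ein2-1, which removes ethylene signaling, most called effects stood at the first and the last time. The authors report low FLS2 transcript in untouched leaves of all genotypes with the mutant EIN2 allele, recovered by the earliest harvest after infiltration. They conclude that a possibly reduced receptor level had no strong impact under their conditions. The part of the receptor level in the ein2-1 effects on the members was not tested. At 1 h ZAT11 had 73.9 to 1058 normalized counts with ein2-1 (median 265), against 325 to 2555 with EIN2 intact (median 730), a difference of -1.33 ± 0.11 (adjusted p = 1.04e-32). At the same time ZAT12 (-0.99), ZAT6 (-0.95), AZF2 (-1.03), ZAT10 (-0.52) and AZF1 (-0.50) were lower too, and ZAT7 was not called. At 18 h AZF1 had 6.82 to 234 with ein2-1 (median 45.8), against 34.0 to 395 (median 148), a difference of -1.45 ± 0.13 (adjusted p = 1.95e-21). ZAT10 (-1.18), ZAT7 (-1.03), ZAT6 (-0.92), ZAT12 (-0.87) and ZAT11 (-1.69) were also lower at 18 h, and AZF2 was not called. At 2 h ZAT6 was lower (-0.33 ± 0.11), a call lost without replicates 1 and 2 (-0.33 and -0.26, adjusted p = 0.158 and 0.191), and from 2 to 9 h ZAT10 and AZF1 were not called. AZF1 at 2 h passed with the replicate block (-0.27, adjusted p = 0.0425), and ZAT10 at 2 h with the block within each time point (-0.22, adjusted p = 0.0499).

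ZAT12 changed sign within an hour. At 2 h it had 71.1 to 424 with ein2-1 (median 210), against 210 to 864 with EIN2 intact (median 429), a difference of -1.10 ± 0.16 (adjusted p = 2.34e-09). At 3 h it had 82.6 to 519 with ein2-1 (median 326), against 57.1 to 407 (median 192), a difference of 0.58 ± 0.16 (adjusted p = 0.00462). The 3 h call was lost without replicate 1 (0.52, adjusted p = 0.08) and without replicate 3 (0.56, adjusted p = 0.0698). The change between the times was itself tested, after the effects had been seen, and was 1.68 ± 0.22 (adjusted p = 6.96e-10, called in all 10 alternatives). AZF2 had effects of -1.03 at 1 h and 0.62 at 2 h, a change of 1.65 ± 0.31 (adjusted p = 4.08e-05). Its 2 h effect alone was lost with TMM factors (0.56, adjusted p = 0.0903) and without replicate 1 (0.60, adjusted p = 0.28), and it was called higher again at 9 h (0.89 ± 0.25, adjusted p = 0.0032), a call lost without replicate 1 (0.74, adjusted p = 0.186).

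PAD4 is a lipase-like partner of EDS1 in immune signaling, and ZAT7 was the member called at every time after infiltration. With pad4-1 ZAT7 had 3.37 to 81.8 normalized counts at 18 h (median 35.9), against 30.5 to 291 with PAD4 intact (median 114). The 18 h difference was -1.97 ± 0.25 (adjusted p = 2.27e-12), or 3.92-fold, and at 1, 2, 3, 5 and 9 h it was -1.18, -1.24, -1.21, -1.37 and -0.85, all called. Of these 6 calls 5 held in all 10 alternatives, and that at 3 h was lost without replicate 1 (-0.85, adjusted p = 0.0937). In untouched leaves ZAT7 was not called under pad4-1, but it leaned the same way on few reads. Its genotype means there ran from 0 to 6.16 with pad4-1, against 0 to 40.5 with PAD4 intact. ZAT12 had 57.1 to 464 with pad4-1 at 1 h (median 158), against 121 to 1550 (median 309), a difference of -1.19 ± 0.16 (adjusted p = 2.59e-10), and it was lower at 18 h too (-0.92 ± 0.18, adjusted p = 2.85e-05). Its calls at 3 and 5 h (-0.47 and -0.49) were lost without replicate 1 and without replicate 3. ZAT11 was lower at 1 h (-0.82 ± 0.11, adjusted p = 2.62e-12). AZF1 was lower at 9 and 18 h (-0.62 and -0.97) and AZF2 at 5, 9 and 18 h (-0.70, -1.07 and -0.68), the 9 h effect having an adjusted p of 0.000208. The 5 h call of AZF2 was lost without replicate 1, and its 18 h call without replicates 1 and 2. ZAT10 was lower at 18 h (-0.59 ± 0.15, adjusted p = 0.00237), a call lost without replicate 3 (-0.44, adjusted p = 0.146). ZAT6 was not called at any time under pad4-1, its differences after infiltration lying between -0.37 and 0.11.

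Under the loss of SID2 the called members after infiltration were AZF1, AZF2 and, in its fit without the filter, ZAT11 at 3 h (-0.32 ± 0.10, adjusted p = 0.0349), which 1 of the 4 fits that hold ZAT11 called. AZF1 had 6.82 to 160 normalized counts with sid2-2 at 18 h (median 50.0), against 36.1 to 395 with SID2 intact (median 161), a difference of -1.43 ± 0.13 (adjusted p = 5.04e-21), and at 9 h the difference was -0.76 ± 0.11 (adjusted p = 5.92e-09). Its smaller 1 h call (-0.30 ± 0.11) was lost without the filter (adjusted p = 0.0779) and without replicates 1 and 3 (-0.24 and -0.29, adjusted p = 0.352 and 0.191). AZF2 had 0 to 57.1 with sid2-2 at 18 h (median 26.1), against 5.45 to 111 (median 58.3), a difference of -1.10 ± 0.22 (adjusted p = 2.31e-05). ZAT6, ZAT7, ZAT10 and ZAT12 were not called under sid2-2 at any time without the block, and with the block within each time point ZAT7 passed at 9 and 18 h (-0.38 and -0.49) and ZAT12 at 3 and 18 h (-0.34 and -0.43). In untouched leaves AZF1 was called lower with sid2-2 (adjusted p = 0.0289), from 0 to 12.2 normalized counts (median 0), against 0 to 34.3 (median 5.89), which 1 group without reads leaves without a size. It was the 1 call of the 24 at 0 h.

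**Figure D4:**
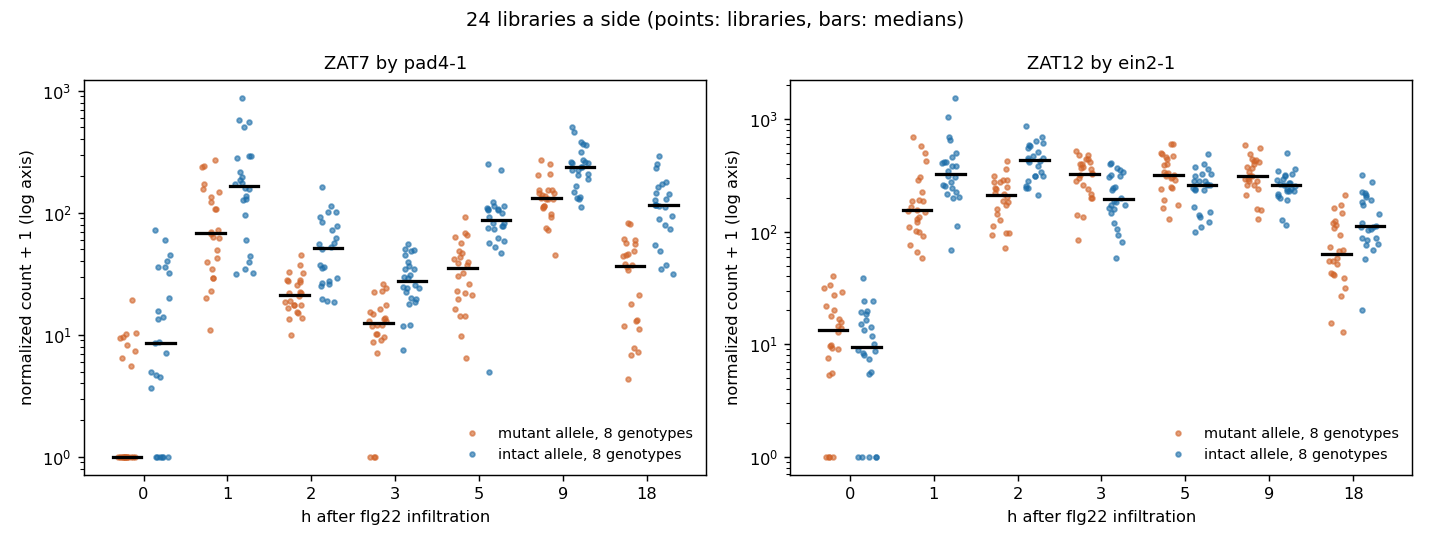
Normalized counts (plus 1, log axis) of ZAT7 by the PAD4 allele and of ZAT12 by the EIN2 allele, by hours after infiltration, with 24 libraries a side and bars at the medians. The mutant bar of ZAT7 lies below the intact bar at every time, untouched leaves included (35.9 against 114 at 18 h). The mutant bar of ZAT12 lies below the intact bar at 2 h (210 against 429) and above it at 3 h (326 against 192).

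Differences of an allele effect between times were tested directly, after the effects had been seen. Among the 168 tests of changes in an allele effect, 26 were called (41 with the block within each time point), where 4.27% of all tests were. The ein2-1 effect fell between 9 and 18 h in AZF1 (-1.32 ± 0.17), ZAT7 (-1.39 ± 0.31), ZAT12 (-1.22 ± 0.24) and ZAT10 (-1.16 ± 0.20), each called in all 10 alternatives. The dde2-2 effect fell between 1 and 18 h in ZAT7 (-1.90 ± 0.32, adjusted p = 3.18e-06) and AZF1 (-0.91 ± 0.17, adjusted p = 1.9e-05), both of which had been higher at 1 h, and it moved upward in ZAT6 (1.06 ± 0.22, adjusted p = 0.000299, lost without replicate 3 at 0.99 and adjusted p = 0.053), which had been lower. The sid2-2 effect on AZF1 fell by 1.13 on the log2 scale between 1 and 18 h (adjusted p = 3.24e-08).

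Whether a pair of alleles acts more or less than the sum of their log2 effects was tested for the 6 pairs at 7 times. Of 252 member tests 1 was called, where 0.0464% of all tests were, and 18 had an unadjusted p under 0.05 and 1 was called by DESeq2. It was AZF1 with dde2-2 and sid2-2 at 18 h (1.15 ± 0.26, adjusted p = 0.0363), lost with each replicate left out (0.88 to 1.47, adjusted p from 0.0785 to 1). The levels behind it are medians of 12 libraries from 4 genotypes, which differ in EIN2 and PAD4, and so are not those of single mutants. AZF1 had 73.5 normalized counts with both alleles mutant, 127 with dde2-2 and SID2 intact, 42.6 with sid2-2 and DDE2 intact, and 203 with both genes intact. In the fit without the filter ZAT11 was called for ein2-1 and pad4-1 at 1 h (-0.87 ± 0.21, adjusted p = 0.0469). Its medians, again of 12 libraries from 4 genotypes, were 187 with both alleles mutant and 351 with ein2-1 and PAD4 intact. They were 697 with pad4-1 and EIN2 intact, and 864 with both genes intact. Of the 4 fits that hold ZAT11, 1 called this interaction.

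**Figure D5:**
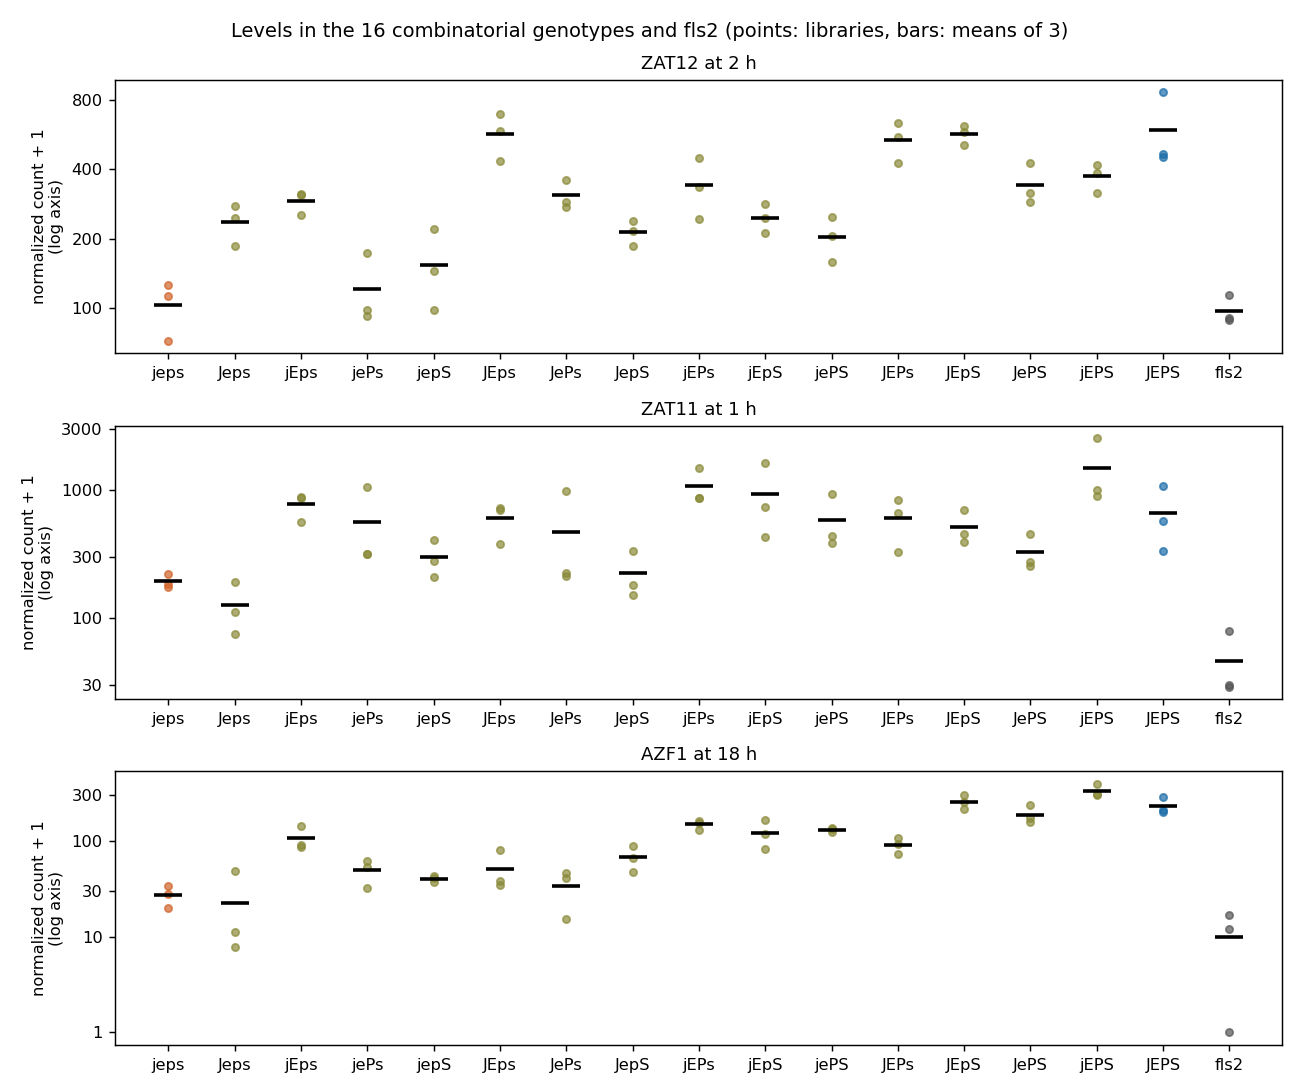
Normalized counts (plus 1, log axis) in the 16 combinatorial genotypes and fls2 of ZAT12 at 2 h, ZAT11 at 1 h and AZF1 at 18 h, with points for libraries and bars for means of 3. ZAT12 means run from 103 in jeps to 594 in JEPS, with 96.5 in fls2, ZAT11 means from 125 in Jeps to 1485 in jEPS, and AZF1 means from 21.4 in Jeps to 334 in jEPS.

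Across genotypes the order of levels differed among members. At 2 h ZAT6 ran only from 1050 in jePs to 1785 in JEpS (means of 3), a 1.7-fold range, and all 16 genotypes lay above the highest fls2 library. ZAT12 at 2 h ran over a 5.79-fold range, and in 13 of 16 genotypes all 3 libraries lay above the highest fls2 library. ZAT7 at 18 h ran over a 23.1-fold range, from 11.1 in jepS to 258 in jEPS. In 10 of 16 genotypes all 3 of its libraries lay above the highest fls2 library. The peak of ZAT7 came at 1 h in 6 genotypes and at 9 h in 10, while that of ZAT10 came at 2 h in 12 and at 1 h in 4.

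Of 11 other ZAT and AZF genes, 2 passed the filter, ZAT17 and AZF3, and the response of both passed as higher in JEPS, compared with fls2, at 1 time or more. AZF3 had 151, 67.7 and 84.5 normalized counts in JEPS at 9 h, against 0, 0 and 0 in fls2, and ZAT17 had 72.6, 86.4 and 62.5 in JEPS at 18 h, against 0, 0 and 0. ZAT8, the neighbor of ZAT7 in sequence, had 571 reads in all. It shares a longest run of 44 bases with ZAT7, and 0 of the windows of 30 bases in the last 300 bases of ZAT7, where the reads fall, are also in ZAT8. Of 19 genes known as regulators, partners or targets of members 15 were tested, and 5 were called higher (MPK3, HSFA4A, TPR1, WRKY25 and LOX3) and 5 lower (FSD1, LOX2, GSH1, RD29A and COR15A) at any time, where 18.8% of all genes were higher and 30.9% lower. HSFA4A, a heat shock factor that MPK3 and MPK6 phosphorylate, had 538, 538 and 605 in JEPS at 1 h, against 180, 89.1 and 113 in fls2 (response difference 3.16 ± 0.37, adjusted p = 2.55e-13). RD29A and COR15A, cold and dehydration genes that ZAT10 and ZAT12 are known to affect, had lower responses in JEPS. At 3 h RD29A had 976, 1362 and 1495 in JEPS, against 8354, 8726 and 5433 in fls2 (-2.53 ± 0.70, adjusted p = 0.00331), and COR15A had 1629, 2278 and 2716, against 17675, 19656 and 9641 (-2.45 ± 0.63, adjusted p = 0.00134).

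The genes most like each member over the 119 group means were ranked by Pearson correlation of log2 levels, as a description in which all points share libraries, depth and time course. AZF1 was most like PIRL2 (0.975), AT1G52200 (0.972) and the lectin receptor kinase gene RLK (0.972), ZAT10 most like NADP-ME2 (0.972), PPI1 (0.964) and PAPP2C (0.962), and ZAT12 most like HR4 (0.944), SS2 (0.942) and AT1G53625 (0.936). ZAT6 was most like RHA1 (0.922), ATGP4 (0.920) and GSTF10 (0.917), and ZAT7 most like PAP18 (0.818), AT1G17080 (0.804) and AT5G17760 (0.800). AZF2 had no close neighbor, with AT1G12990 at 0.587, AT2G30550 at 0.567 and HWI1 at 0.524. Among the members the highest correlation was that of ZAT6 with ZAT10 (0.907), followed by ZAT10 with AZF1 (0.900), and AZF2 correlated with no member above 0.229.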

How the data were processed

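Leaf RNA was measured by stranded mRNA Tag-Seq in 357 libraries, 16 to a sequencing lane as a rule. The deposited table holds whole-number read counts per gene: the authors kept reads with exact barcodes, removed artifact reads, mapped with Bowtie 0.12.8 to TAIR10 transcripts and summed forward-strand reads that fit a single gene. Each column was matched to its sample by genotype, time and replicate in its name, and 0 columns of per-sample values were left out. No row without a gene name was used.

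Counts were scaled to a 90th percentile of 300 over the 26275 genes with a read. Genes with fewer than 50 libraries without reads and a 15th highest count above 25 were tested (11848). This is the filter as the authors word it, but it leaves fewer genes of the deposited table than they state, and all shares of called tests are over these genes. A negative binomial model with a mean for each of the 119 groups was fitted with the dispersions of edgeR 4.0.16 and its quasi-likelihood test, recoded in Python 3.11.15 (numpy 2.4.6, scipy 1.17.1, pandas 2.3.3, numba 0.67.0) and checked on 3900 tests against edgeR itself (largest difference in log10 p 0.00018). It was tested on simulated data. P-values were adjusted by Benjamini-Hochberg over all genes and contrasts of a comparison, and a call needed an adjusted p under 0.05 and, other than for allele effects, their changes and pair interactions, a log2 difference beyond 1. ZAT11 was taken from a fit of all genes without the filter, for which 4 fits were made. Log2 differences of groups without reads have no size, so counts or a floor of 3 counts over the group are given. DESeq2 1.42.0, limma 3.58.1 (squeezing of dispersions), R 4.3.3 and matplotlib 3.10.9 were also used.

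The members and gene lists were chosen with earlier results of these data known. The named genes are the 7 members, 11 other ZAT and AZF genes, 19 regulators, partners and targets (values for the 3 largest past the test), the 3 genes most like each member, the mutated genes and leaf and touch markers. The comparisons of jeps with JEPS levels, of JEPS and jeps with fls2 levels and of allele effects between times were added after seeing the data. The alternatives were TMM factors, no filter, DESeq2, Storey q-values, the replicate number as a block (alone or within each time point), sequencing lane, and each replicate left out.

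Replicate numbers were checked for pairing, each replicate being a pool of the same 4 experiments. Libraries of the same number and time but other genotype deviated from their group means together (mean r 0.291, 99.6% of 2856 pairs above 0), against -0.142 for other numbers at the same time, so the block is a paired fit. Lanes held 1 or 2 time points, and nearly all of them a single replicate number. They were filled in the order of the genotypes, so that compared groups could lie in different lanes. For replicate 1 at 0 h, fls2 was in lane 2 and JEPS in lane 1. The libraries carry 2 machine labels, umn and tsl, which can also differ between compared groups. For replicate 2 at 5 h, JEPS was labeled umn and fls2 tsl. The leaves at 0, 9 and 18 h were harvested at other times of day than the rest, which cannot be told apart from time after infiltration. No pair of libraries was identical (highest r 0.9744). P-values measure the spread between pools of plants.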

Additional observations from a re-analysis of the deposited data

Results flagged for a closer look

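AZF1 is one of the results in which effects differed by a test of the difference itself. The dde2-2 and sid2-2 pair at 18 h had an interaction of 1.15 ± 0.26 on the log2 scale (adjusted p = 0.0363, edgeR quasi-likelihood test), which means that AZF1 fell less with both alleles mutant than the sum of both effects. This call was lost with each replicate left out. AZF2 in JEpS at 2 h had a response change of -3.66 ± 1.02 (adjusted p = 0.0331), from levels that at 0 h lay between 33.3 and 93.5 normalized counts in JEpS and between 8.82 and 18.2 in jeps. That call was lost without replicate 1 and without replicate 2. The ein2-1 effect on ZAT12 at 3 h minus that at 2 h was 1.68 ± 0.22 (adjusted p = 6.96e-10), with opposite signs at the 2 times. The ein2-1 effect on AZF2 at 2 h minus that at 1 h was 1.65 ± 0.31 (adjusted p = 4.08e-05), again with opposite signs, at medians of 22.1 to 48.6 normalized counts.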

How the results depend on the processing

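Of 188 member calls 108 held in all alternatives that gave a value, 80 were lost in 1 or more and 0 reversed. DESeq2 lost 4, TMM factors 2, no filter 4, Storey q-values 0, the replicate block 0, the block within each time point 3 and sequencing lane 9, while leaving out replicates 1, 2 and 3 lost 53, 34 and 50, with fewer samples in every group. Leaving out replicate 1 gave no value for 16 results and replicate 2 none for 5, where a 0 h group then held no read. Without replicate 3 AZF2 was not tested, so that its results have 9 alternatives in place of 10. With a replicate left out, the calls ranged from 9 to 18 (JEPS minus fls2 response, 23 with all), 9 to 20 (fls2 against 0 h, 18), 2 to 10 (jeps minus fls2 response, 13), 0 to 0 (response change, 1), 0 to 0 (pair interactions, 1), 8 to 11 (jeps against JEPS level, 14) and 11 to 20 (change of allele effects, 26). Response change calls of the members (of 540) were 8 with no filter, 3 with DESeq2, 2 with the replicate block, 14 with the block within each time point and 15 with sequencing lane, where 0.419%, 0.798%, 1.07%, 2.7% and 2.35% of all tests were called, so that the counts under the last 2 stand close to the share of all genes. The 4 single mutants against JEPS gave 4 with sequencing lane. Pair interactions gave 2 with no filter, 2 with the block within each time point and 2 with sequencing lane, and changes of allele effects gave 41 with the block within each time point. The cause of these shifts was not tested. Beside the calls named with it, the paired fit with the replicate block lost none and gained others, among them ZAT12 in fls2 at 9 h (1.71, adjusted p = 0.0472). Depth limits the 0 h levels most, where a single read was worth a median of 5.26 normalized counts.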
